A study of Rattus norvegicus with 12 samples.

Results

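The 9691 windows described here were the 100 bp windows of the rat autosomes with the strongest methylated DNA immunoprecipitation (MeDIP) signal. They were selected on the read count itself, as the windows whose deposited counts summed to 1000 or more over all 12 pools of cells, and made up 0.037% of the 26187330 autosomal windows and 0.969 Mb of sequence in all. The counts came from ventral prostate epithelial and stromal cells of F3 generation males of a control lineage and a vinclozolin lineage, with 3 pools in each of the 4 groups. The founding F0 females were outbred Hsd:Sprague Dawley rats that received daily intraperitoneal vinclozolin at 100 mg/kg, or the dimethyl sulfoxide vehicle alone in the control lineage, from day 8 to day 14 of gestation. No rat of the F1 to F3 generations was dosed. Each pool held cells of several rats 19 to 21 days old, the cells were separated by settling and centrifugation after collagenase digestion, and no marker measured here checks how pure either fraction was. Control and vinclozolin rats were different animals, so a sequence variant or copy number that differed between the outbred lineages cannot be told apart from a difference in methylation.

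MeDIP uses an antibody against 5-methylcytosine to pull down DNA fragments that carry methylated cytosines, which in mammals lie mostly in CpG dinucleotides. The read count of a window therefore rises with the number of methylated CpG sites on the fragments that cover it, with the share of cells in which they are methylated and with the number of genomic copies whose reads align there. Repeated sequence, such as ribosomal DNA and retrotransposons, is heavily methylated in somatic cells and is often represented by fewer copies in an assembly than in the genome. Vinclozolin is a fungicide whose metabolites block the androgen receptor, the receptor on which growth of the prostate depends.

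The summed count of the selected windows ran from 1000 to 3600, with a median of 1303 and an interquartile range of 1112 to 1681. The median autosomal window held 14 counts over the same 12 pools, and the mean was 36.1. A sum of 1500 or more was reached by 3343 of the selected windows, 2000 or more by 1382, and 3000 or more by 195. Signal was present in every pool: the lowest count of any selected window in any pool was 32, and the lowest pool of a window was never under 0.347 of that window's median pool. The boundary had no gap. Of the 28 windows at exactly 1000, the first in genome order lay at chr1:11911101-11911200, chr1:180987001-180987100 and chr1:217437801-217437900, with pool counts between 51 and 118. Just outside, 25 windows held 1 count fewer, among them chr1:154347301-154347400, chr1:217437401-217437500 and chr1:254797301-254797400, with pool counts between 46 and 120.

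The pools differed in depth, and the lineages with them. Control pools held 60.6, 87.3 and 71.9 M counts for epithelial cells and 57.1, 64.4 and 73.9 M for stromal cells. Vinclozolin pools held 82.7, 109 and 74.6 M for epithelial cells and 110, 112 and 71.8 M for stromal cells. The 2 deepest stromal pools were thus both of the vinclozolin lineage, and only vinclozolin pool 3 was as shallow as the controls. Epithelial control pool 1 stood apart: across the selected windows its log2 CPM correlated with the other pools at Pearson r of 0.596 to 0.871, while all other pairs of pools lay between 0.747 and 0.948. The counts of epithelial and cell type calls are given with and without it.

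The selected windows were unevenly spread over the chromosomes. Chromosome 1 held 2503 of them, 25.8% of the total, against its 10.8% of autosomal windows. Chromosomes 14, 13 and 12 held 7.03, 6.26 and 6.30 selected windows per 10000 windows, where the autosomes as a whole held 3.7. Chromosome 15 had the lowest density, at 1.65 per 10000, followed by chromosome 11 at 1.76.

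**Figure D1:**
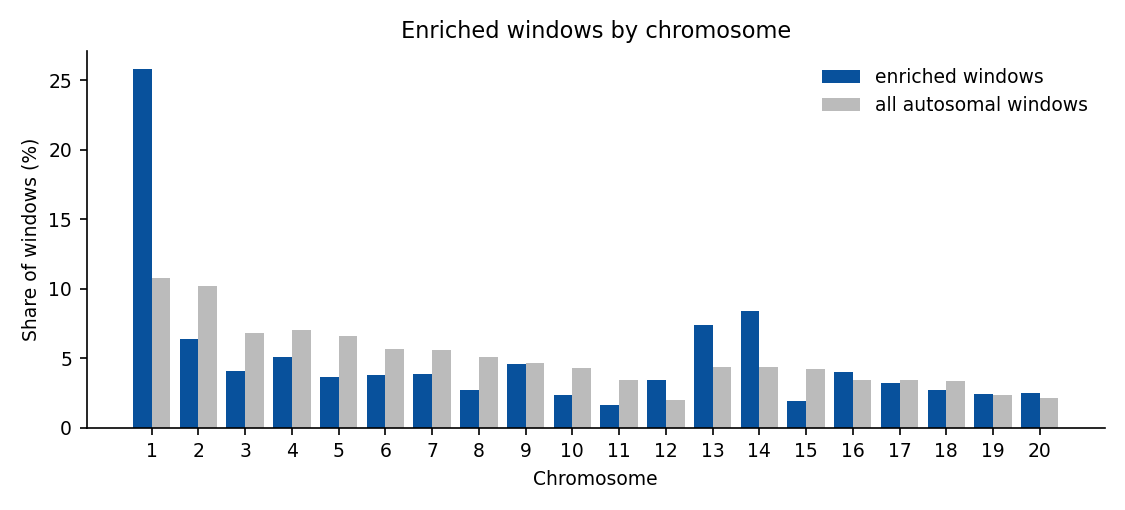
The share of the selected windows (blue bars) and of all autosomal windows (grey bars) that lie on each chromosome, in percent. Chromosome 1 holds 25.8% of the selected windows and 10.8% of all windows, and chromosomes 12, 13 and 14 also hold more than their part.

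Much of this imbalance came from a few places. The 2 adjoining 1 Mb stretches of chromosome 1 from 180 to 182 Mb held 669 and 508 selected windows, the stretch of chromosome 13 from 33 Mb held 489, and that of chromosome 14 from 46 Mb held 453. These 4 stretches together held 2119 windows, or 21.9%, and the 10 fullest stretches held 30.2%. An even spread would have placed 3.69 windows in each of the 2629 stretches, so the fullest held 181.5 times as many. Outside 180 to 182 Mb, chromosome 1 held 1326 selected windows, or 4.69 per 10000 of its windows. At the other extreme, 430 stretches held a single selected window, and 52.6% of all stretches held at least 1.

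Most selected windows lay outside the ends of chromosomes and the distal part of chromosome 12, although the ends held more than their share. The outermost 2 Mb of the autosomes held 372 selected windows, 3.84% of them, against 3.05% of all autosomal windows. Chromosome 12 from 45 Mb onward held 36 of that chromosome's 332 selected windows, in 19 clusters. Chromosome 12 has 527168 windows in all. Its windows from 45 Mb onward were not counted apart, so no background share stands beside the 36.

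When selected windows whose starts were at most 1000 bp apart were joined, 2985 clusters resulted. A single window made up 1350 of them (45.2%), 1223 held 2 to 4 windows, 249 held 5 to 9, 92 held 10 to 19, and 71 held 20 or more. The few large clusters carried much of the total: the 163 clusters of 10 or more windows contained 3665 windows, or 37.8%. Of all selected windows, 82.3% touched another one. The median gap between clusters on a chromosome was 345801 bp, and 32.8% of the 2965 gaps were under 100 kb.

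The largest cluster, chr1:180800801-180810700, held 86 selected windows over 9900 bp. The next, by number of windows, were chr12:3349901-3357600 with 74, chr13:33584101-33595100 with 72, chr4:77401001-77412200 with 71 and chr1:181071501-181079900 with 69. The longest was chr2:49353101-49366200, which spanned 13100 bp with 63 windows. Clusters at chr18:38412701-38419200 (62 windows), chr14:46599401-46607000 (56), chr3:133993701-134000000 (56) and chr14:46526201-46533700 (53) completed the 10 largest. In these clusters many neighbouring windows passed the threshold together.

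Strength rose with size. The median summed count was 1089 in clusters of 1 window, 1200 in clusters of 2 to 4, 1383 in those of 5 to 9, 1496 in those of 10 to 19 and 1649 in those of 20 or more. The shapes also differed. Around a window that stood alone, the mean count per pool was 95.1 at its centre, 27.2 at 200 bp upstream, 11.2 at 400 bp and 5.59 at 800 bp, close to the level at 2000 bp of 5.81. Around the highest window of clusters of 20 or more, the mean was 221 at the centre, 98.8 at 800 bp upstream and still 78.6 at 2000 bp. The classes count neighbours that pass the same threshold, so low flanks of lone windows and high flanks of large clusters follow from the joining rule in part, and the profiles are a description.

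**Figure D2:**
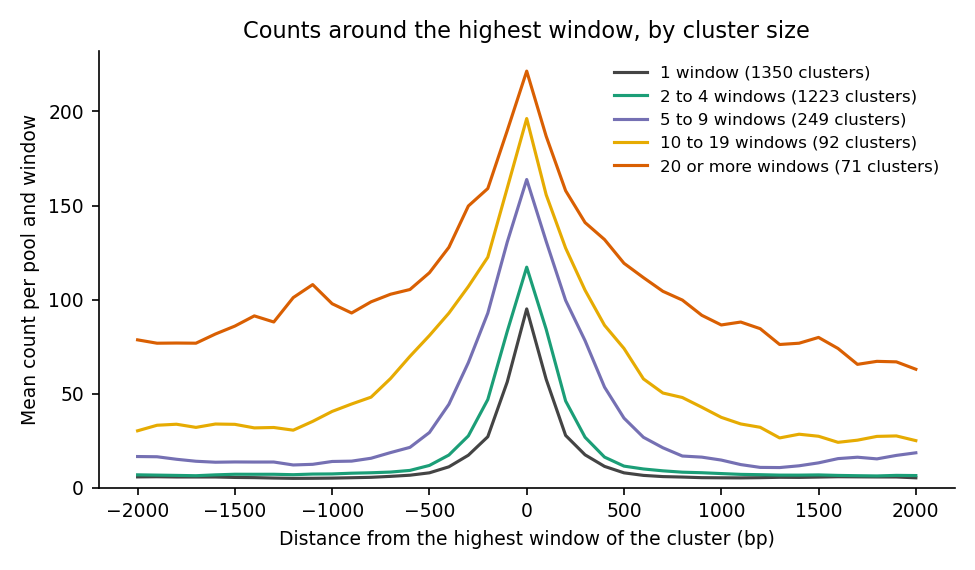
Mean count per pool and 100 bp window (vertical axis) against distance in bp from the highest window of each cluster, averaged over clusters of 5 size classes and over the 12 pools. Lone windows peak at 95.1 and fall to 5.59 by 800 bp upstream, whereas clusters of 20 or more windows peak at 221 and remain at 78.6 by 2000 bp.

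The counts had a ceiling. The highest count was exactly 300 in each of the 12 pools, although the pools differed in depth from 57.1 to 112 M. Among the selected windows, 42 held 300 in at least 1 pool, which gave 174 such values of 116292, and no window outside the selection reached 300 in any pool. A count of at least 90% of the ceiling was found in at least 1 pool for 264 windows (2.72%) and in all 12 pools for 76. A count of at least 50% of the ceiling was found in at least 1 pool for 4410 windows (45.5%) and in all 12 for 1033. How duplicate reads were treated is not given in the sources used here, and its part in the ceiling was not tested.

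The 3 deepest pools had the most windows at 50% of the ceiling or more. In stromal cells the number of selected windows at 50% of the ceiling or more was 1386, 1458 and 2267 in the control pools and 3385, 3744 and 1983 in the vinclozolin pools. In epithelial cells it was 1746, 2055 and 1531 in the control pools and 1816, 3111 and 1781 in the vinclozolin pools. Windows at 300 did not follow depth alone. Stromal vinclozolin pool 2, the deepest, had 37, pool 3 of the same group had 23 at 71.8 M and pool 1 had 22 at 110 M, whereas epithelial control pool 3 had 4 at 71.9 M. Windows near the ceiling lay mostly in large clusters: 35 of the 42 windows that reached it lay in clusters of 20 or more windows, and no window that stood alone reached 90% of it. Neighbours of a window with so high a count tend to pass the threshold and join it. The absence of lone windows there thus follows from the selection and joining rules in part.

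The window with the highest sum, chr1:180646201-180646300, held 300 counts in each of the 12 pools and thus could not differ between groups before scaling. It lay in a cluster of 24 windows at chr1:180644101-180646800, of whose pool values 45.8% were at 90% of the ceiling or more. The other clusters with the highest windows were chr13:33502101-33505600 (highest sum 3596), chr1:180800801-180810700 (3593), chr1:180701801-180706300 (3588) and chr1:180893001-180893700 (3577). The highest shares of pool values at 90% of the ceiling or more were 56.2% in chr13:33502101-33505600, 56.0% in chr1:180893001-180893700 and 50.0% in chr7:22323301-22323900. The top windows of the first 5 of these clusters held between 296 and 300 counts in every pool, whatever its depth.

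The share of a pool's counts that fell in the selected windows went down as depth went up. This share was 1.83%, 1.38% and 1.49% in the epithelial control pools and 1.39%, 1.26% and 1.55% in the epithelial vinclozolin pools. It was 1.76%, 1.65% and 1.67% in the stromal control pools and 1.29%, 1.28% and 1.59% in the stromal vinclozolin pools. Over the 12 pools, the Pearson correlation of the log2 share with the log2 total count was -0.89 for windows with sums of 1000 to under 1500, -0.96 for 1500 to under 2000, -0.984 for 2000 to under 3000 and -0.998 for 3000 or more. Spearman's rho was -0.85, -0.91, -0.97 and -0.99 for the same bands. Without the 2 pools farthest from the median depth, Pearson's r was -0.86, -0.95, -0.98 and -0.996. The fall was not particular to the selected windows: Pearson's r was -0.66 for sums of 500 to under 1000 and -0.58 for 200 to under 500. In windows with sums of 80 to under 200 it was -0.24. It was positive in weaker windows, at 0.60 for sums of 40 to under 80 and 0.60 for 1 to under 40. Share and depth are built from the same totals, and these values are a description without a test. In the epithelial pools alone r was -0.89 for sums of 1000 to under 1500, and in the stromal pools alone it was -0.94.

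**Figure D3:**
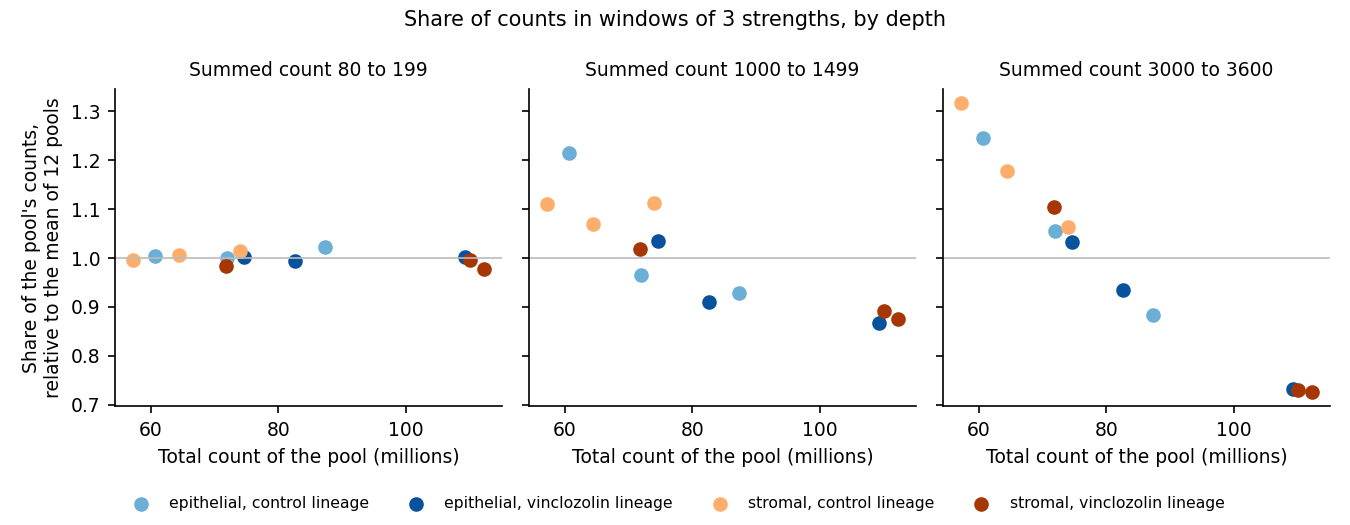
Share of each pool's counts that falls in windows of 3 bands of summed count, divided by the mean share of the 12 pools (vertical axis), against the pool's total count in Ms. In the weakest of the 3 bands shown the shares lie close to 1 at every depth, and in the strongest band they fall from 1.32 in the shallowest pool to 0.727 in the deepest.

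The ratio of the observed variance between pools of a group to that of counting had a mean over windows of 4.22 and a median of 2.66 in epithelial control, 1.93 and 1.49 in epithelial vinclozolin, 1.503 and 0.895 in stromal control, and 3.55 and 2.21 in stromal vinclozolin pools. The median coefficient of variation of a selected window, after scaling by total count and normalization factor, was 15.4%, 10.98%, 9.16% and 14.0% in the same order. The value of the epithelial control group includes pool 1.

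Names can be given to few of these regions. The study's lists of regions that differed between lineages carry gene annotation, and 157 of the 2985 clusters could be given a symbol from them that RefSeq also holds or that names an RNA family. In the stromal list some symbols appear to stand a line below their region, and the positions of symbols were not checked. Because those lists were made from a lineage comparison of these pools, the directions of named clusters are no independent evidence. The study also counted genes that lie near a region, so a window annotated to a gene need not lie inside it. Whether a window is exonic or intronic was not analysed here.

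Ribosomal RNA genes were among the annotations. In all, 24 clusters with 287 selected windows carried the names 5_8S_rRNA, Rn5-8s, pRNA or 5S_rRNA. The 5.8S and 5S ribosomal RNAs are structural parts of the large ribosomal subunit, and pRNA is a transcript of the ribosomal gene promoter that takes part in silencing of ribosomal DNA. The largest lay on chromosome 14, where chr14:46599401-46607000 held 56 windows and chr14:46592201-46598100 held 43, and smaller ones lay on chromosomes 1, 5, 6 and 19. The 287 windows had a median sum of 1440, and 7 had a pool at 90% of the ceiling or more. The highest was in a cluster of 16 windows annotated to 5S_rRNA and Gas8, which encodes a component of motile cilia, at chr19:56337701-56339300. Its top window held 276, 289 and 280 counts in epithelial control, 288, 288 and 285 in epithelial vinclozolin, 277, 289 and 292 in stromal control and 299, 300 and 295 in stromal vinclozolin pools. Those unscaled counts overlapped between the epithelial lineages and were slightly higher in every stromal vinclozolin pool than in any stromal control pool. After scaling, the edgeR test described below called this window lower in the stromal vinclozolin lineage. That call was kept in 3 alternatives, was lost in 9, and in 2 more was lost with a change of sign. Short reads from ribosomal gene copies can align to any of them, so the position of these counts among copies is uncertain.

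The lineage difference asks whether ancestral exposure left a mark on these regions that was carried to F3 cells. In stromal cells, 1356 of the 9691 selected windows (14.0%) passed an adjusted p of 0.05 (edgeR quasi-likelihood test, Benjamini-Hochberg adjustment over 3303916 windows), against 0.926% of all windows tested. Of these, 1350 were lower in the vinclozolin lineage, against 0.673% of all tested windows called lower, and 6 were higher. The calls fell in 646 clusters. Their number was 157 without stromal vinclozolin pool 2, 2851 without vinclozolin pool 3, 487, 562 and 886 without control pools 1, 2 and 3, and 489 by DESeq2. Without vinclozolin pool 1 the number lay within the range of 157 to 2851, and with the count filter lowered or removed it fell below 157. The median log2 fold change (vinclozolin over control) of the selected windows was -0.26, and that of all windows tested was -0.00066. Windows with sums of 500 to under 1000, just below the selection, had a median of -0.07 and 5.86% called lower, so the shift grew with the strength of the signal. Within the selection the median was -0.22 for sums of 1000 to under 1500, -0.26 for 1500 to under 2000, -0.34 for 2000 to under 3000 and -0.48 for 3000 or more.

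Depth moved with this result. Before scaling, only 6 selected windows had lower counts in every stromal vinclozolin pool than in every control pool, and 3171 (32.7%) had higher counts in every vinclozolin pool, where 0.313% and 23.0% of autosomal windows with a sum of 80 or more did so. After scaling, 3299 (34.0%) lay lower in every vinclozolin pool and 101 (1.04%) higher, against 9.55% and 8.73% of those autosomal windows. The window at chr1:180646201-180646300, with 300 counts in every pool, was itself called lower, with a log2 fold change of -0.54 (SE 0.14, edgeR adjusted p = 0.0206). Its fold change is that of the library totals and normalization factors alone. Among the 195 windows with sums of 3000 or more, 48.7% were called lower, and not one had a positive fold change.

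Taking depth or the ceiling into account changed the counts. With the log2 library total as a covariate, a fit chosen after the data were seen, 101 selected windows were called lower and 5 higher in stromal cells, with a median log2 fold change of 0.01. The same fit called 0.0468% of all windows tested, against 0.926% without the covariate, so calls became fewer among all windows too. Of the 1356 calls, 97 were kept. With each count n replaced by -300 ln(1 - n/300), where counts of 300 were first lowered by 0.5, 905 were called lower and 27 higher, against 0.789% of all windows tested, the median was -0.14 and 911 of the calls were kept. Both fits kept 86. Fits with depth as covariate have few degrees of freedom, since 6 pools carry 3 coefficients, and lineage and depth overlap in them. In stromal cells pool 3 was the only vinclozolin pool within the depth range of the controls, so depth-adjusted lineage differences lean on that library.

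The settings separated lone windows from large clusters. In the fit with total count and TMM factors, the median log2 fold change of stromal cells was similar in every class, from -0.24 to -0.27. With depth as covariate it was -0.15 in lone windows, -0.07 in clusters of 2 to 4, 0.04 in clusters of 5 to 9, and 0.09 and 0.08 in clusters of 10 to 19 and of 20 or more. Stromal vinclozolin pool 3 (71.8 M) and control pool 3 (73.9 M) were the pair of nearly equal depth. Between these 2 pools, the median log2 ratio of the scaled counts was -0.15 in lone windows and 0.09 in clusters of 20 or more, and 66.4% of the lone windows but 33.4% of the windows in clusters of 20 or more were lower in the vinclozolin pool. Over all selected windows the median was 0.00183, with 49.7% lower. The epithelial pair of nearly equal depth, vinclozolin pool 3 (74.6 M) and control pool 3 (71.9 M), differed in the other direction, by 0.11 in lone windows (35.7% lower) and -0.02 in clusters of 20 or more (55.0% lower). Each pair compares 2 libraries and carries no test. The stromal pair and the depth fit share vinclozolin pool 3, so their values are not independent of each other.

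**Figure D4:**
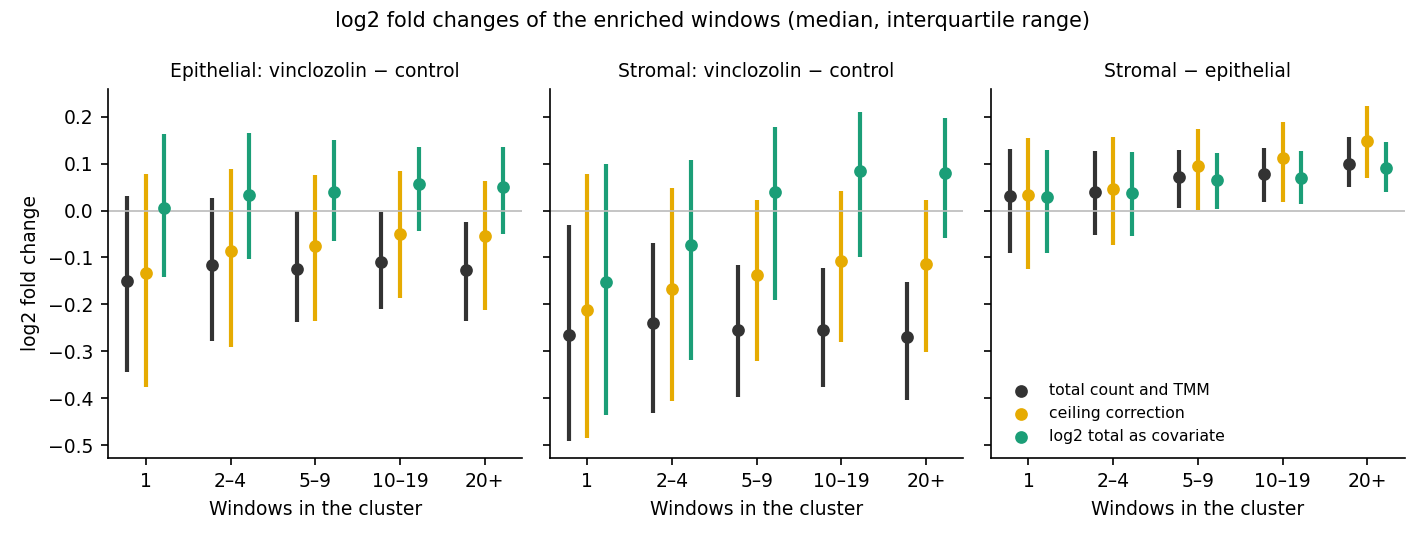
Median (points) and interquartile range (lines) of the log2 fold change of the selected windows, by the number of windows in their cluster, for both lineage comparisons and the cell type comparison under 3 fits. In stromal cells the medians lie near -0.26 in every class when scaled by total count and TMM factors, and range from -0.15 to 0.09 with the log2 total as covariate.

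A smaller number of stromal windows was lower in the vinclozolin lineage under each of these fits. The smallest p belonged to a cluster of 2 windows at chr8:14259401-14259600, annotated to Slc36a4, an amino acid transporter. Its first window held 121, 163 and 164 counts in stromal control pools and 111, 102 and 80 in stromal vinclozolin pools, and so was lower in every vinclozolin pool even before scaling. Scaled, it held 2.28 ± 0.22 CPM (counts scaled by library size and TMM factor, SD, n = 3) in control and 1.02 ± 0.10 in vinclozolin pools. The log2 fold change was -1.17 (SE 0.15, edgeR adjusted p = 5.54e-09), -1.38 with the ceiling correction and -1.02 (edgeR adjusted p = 0.00516) with depth as covariate. In epithelial cells the same window held 120, 177 and 116 counts in control and 77, 111 and 90 in vinclozolin pools, without overlap, and the log2 fold change was -0.83 (SE 0.19, edgeR adjusted p = 0.0352). The neighbouring window differed by -0.93 (edgeR adjusted p = 0.0132) in epithelial cells. Both windows fell in both cell types, although both epithelial calls were lost when any 1 vinclozolin pool was left out. Both were also lost with the filter on low counts reduced to 10, and that of the first window without control pool 2 (edgeR adjusted p = 0.0801). Of the alternatives run, the epithelial call of the first window was kept in 8 and lost in 6. That of the second was kept in 10 and lost in 4.

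**Figure D5:**
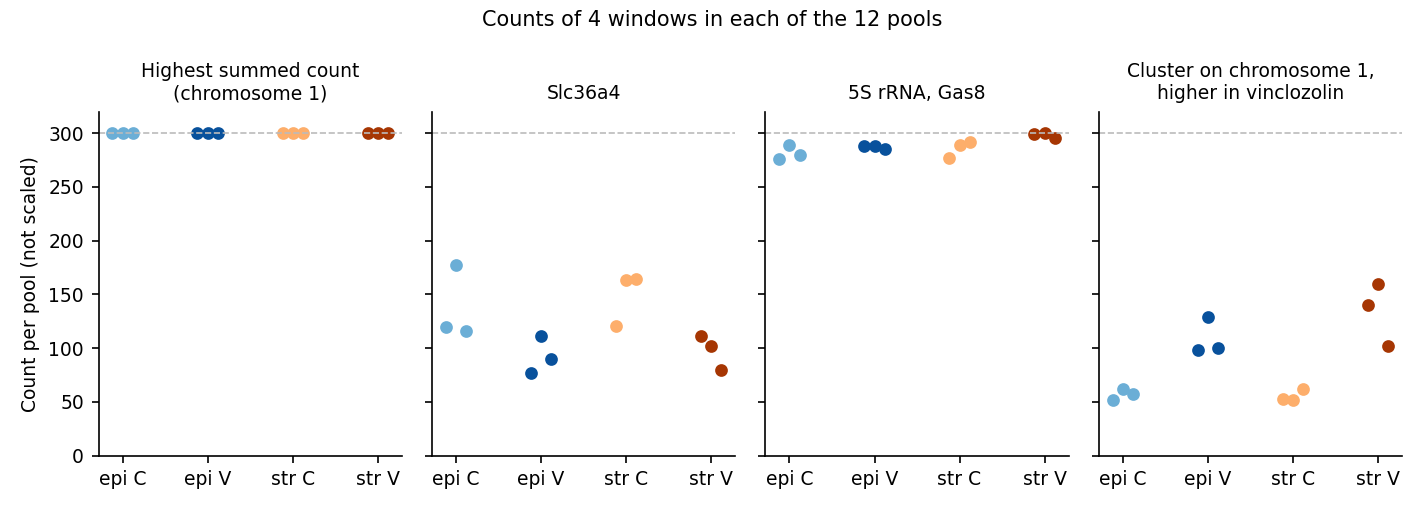
Unscaled counts of 4 windows in each of the 12 pools (points), by group, where epi and str are epithelial and stromal cells, C and V the control and vinclozolin lineages, and the dashed line is the ceiling of 300. The highest window has 300 counts in every pool, the Slc36a4 window is lower in every vinclozolin pool of its cell type, the 5S rRNA and Gas8 window lies close to the ceiling, and a cluster on chromosome 1 is higher in every vinclozolin pool.

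The next 2 clusters by stromal p had no such symbol. Window chr9:10507501-10507600 had 126, 135 and 186 counts in control and 127, 102 and 85 in vinclozolin pools, and a log2 fold change of -1.07 (SE 0.15, edgeR adjusted p = 3.14e-07). Window chr11:90459401-90459500 had 115, 106 and 135 counts in control and 116, 89 and 51 in vinclozolin pools, and a log2 fold change of -1.05 (SE 0.15, edgeR adjusted p = 1.69e-06). Their unscaled counts overlapped between lineages, and their scaled counts did not. Both were also called with depth as covariate, at -1.01 and -1.20.

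Further named clusters, chosen after their values were seen as those with a checked symbol and the smallest stromal p, were also lower in the vinclozolin lineage. Window chr5:16714701-16714800, in a cluster of 8 windows annotated to the ribosomal protein gene Rps20, held 105, 141 and 130 counts in control and 120, 117 and 64 in vinclozolin pools, with a log2 fold change of -0.89 (edgeR adjusted p = 7.56e-05). All 8 windows of this cluster were called. A lone window at chr7:70941601-70941700, annotated to Stat6, a transcription factor of interleukin-4 signalling, held 132, 149 and 161 counts in control and 149, 123 and 87 in vinclozolin pools, with a log2 fold change of -0.87 (edgeR adjusted p = 7.62e-05). The lone window annotated to Dnah17, an axonemal dynein heavy chain, at chr10:107048301-107048400 changed by -0.95 on the log2 scale (edgeR adjusted p = 6.77e-05). These 3 were also called with depth as covariate.

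Trappc3, a subunit of a vesicle tethering complex (chr5:144297101-144297200, log2 fold change -0.85), and RGD1560883 (chr2:4498401-4498500, -1.02) were also called with depth as covariate (edgeR adjusted p = 0.0478 and 0.0121). By contrast, 3 further windows given here lost their call. The window chr3:162241801-162241900 changed by -0.90 (edgeR adjusted p = 0.000116). Sdc4 stands on its line of the stromal list, but symbols in that stretch appear shifted by a line, so no gene is assigned to it. A window annotated to the GTPase-activating protein gene Arhgap26 at chr18:31973501-31973600 changed by -1.01 (edgeR adjusted p = 4.65e-06). One annotated to the Fanconi anaemia DNA repair gene Fancc at chr17:947601-947700 changed by -0.85 (edgeR adjusted p = 0.000223). With depth as covariate the log2 fold changes of these 3 windows were -0.90, -0.83 and -0.89, and their edgeR adjusted p-values 0.064, 0.073 and 0.051.

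Of the 287 windows with ribosomal RNA annotation, 103 were called lower and none higher in stromal cells, with a median log2 fold change of -0.43. Of all selected windows 13.9% were called lower, and of all tested windows 0.673%. With depth as covariate none was called by edgeR, 47 had an unadjusted p under 0.05, and the median was -0.06. In epithelial cells none of them was called by the edgeR test, with a median of -0.30. The lists from which the annotation came were made on this comparison, so the count is not independent of it. In the cluster at chr1:11964901-11967100, 7 of 8 windows were called in stromal cells, and its top window held 192, 176 and 249 counts in control and 205, 186 and 176 in vinclozolin pools, which overlapped before scaling.

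The 6 stromal windows that were higher in the vinclozolin lineage lay in 4 clusters, 3 of which are given here and the last with the epithelial values. Both windows at chr1:179688301-179688500 were called, and the second held 53, 52 and 62 counts in control and 140, 160 and 102 in vinclozolin pools, with a log2 fold change of 0.70 (SE 0.16, edgeR adjusted p = 0.00803). In epithelial cells the same window held 52, 62 and 57 counts in control and 98, 129 and 100 in vinclozolin pools, with a log2 fold change of 0.67 that did not pass the test (edgeR adjusted p = 0.11). Window chr7:21714301-21714400 held 53, 57 and 52 counts in control and 133, 135 and 108 in vinclozolin pools (log2 fold change 0.65, edgeR adjusted p = 0.018). Window chr18:87797701-87797800 held 44, 43 and 66 counts in control and 132, 123 and 105 in vinclozolin pools (log2 fold change 0.68, edgeR adjusted p = 0.0142). In all 3 the lineages did not overlap before or after scaling. With depth as covariate, the window of chromosome 7 was still called (edgeR adjusted p = 0.0224), and those of chromosomes 1 and 18 were not (0.126 and 0.053), with log2 fold changes of 0.79 and 0.93. Each of the 3 calls was kept in 9 of the alternatives run and lost in 5.

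In epithelial cells fewer selected windows were called than in stromal cells, but the test of the difference between cell types, given below, called none. With depth as covariate the median log2 fold change was 0.04 in epithelial and 0.01 in stromal cells. Of the selected windows, 23 (0.237%) were called, all lower in the vinclozolin lineage and in 19 clusters, against 0.106% of all 3304649 windows tested and 0.0651% called lower. Windows with sums of 500 to under 1000, just below the selection, were called more often than the selected ones, at 0.591%, with 0.524% called lower. The median log2 fold change was -0.12, and -0.03 without epithelial control pool 1, where 7 windows were called higher and 11 lower. The number of calls was 133 without control pool 2, 51 without control pool 3, 0 without vinclozolin pool 1 or 2 (674 and 706 at an unadjusted p under 0.05 by edgeR) and 1 without vinclozolin pool 3. Besides Slc36a4, the smallest p values were at chr6:30642601-30642700 and chr6:31056801-31056900. The first held 120, 116 and 104 counts in control and 56, 84 and 71 in vinclozolin pools, without overlap (log2 fold change -0.97, SE 0.19, edgeR adjusted p = 0.012). The second held 167, 106 and 100 counts in control and 62, 105 and 67 in vinclozolin pools, with control pool 1 above all others and overlap between the unscaled counts of the lineages (log2 fold change -0.99, SE 0.20, edgeR adjusted p = 0.018). Without control pool 1 the second lost its call, at -0.55 (edgeR adjusted p = 0.125), and the first kept it, at -0.79 (edgeR adjusted p = 0.00868). The first lost its call without vinclozolin pool 1 (edgeR adjusted p = 0.216), without vinclozolin pool 2 (0.142), with the log2 library total as a covariate (0.0753) and with the filter on low counts reduced to 10 (0.283). Both lay in clusters of at least 20 windows, at chr6:30641401-30644200 and chr6:31053701-31057600.

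No window higher in epithelial vinclozolin pools passed the test, and 80 had an unadjusted p under 0.05 by edgeR. Window chr13:19658301-19658400, the first of them by the naming rule, held 46, 58 and 57 counts in control and 94, 134 and 107 in vinclozolin pools, which did not overlap (log2 fold change 0.79, SE 0.19, edgeR adjusted p = 0.051). In stromal cells it passed, at 0.60 (SE 0.16, edgeR adjusted p = 0.0315). With depth as covariate its log2 fold change was 0.81 (edgeR adjusted p = 0.113). With depth as covariate, 5 selected windows were called higher and 2 lower in epithelial cells, against 0.00672% of all windows tested, and the median was 0.04. The epithelial pools of nearly equal depth had a median log2 ratio of 0.03 over the selected windows, with 43.6% of them lower in the vinclozolin pool.

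Both cell types called 20 selected windows, all lower in the vinclozolin lineage in both, in 17 clusters. This was 0.206% of the selected windows, against 0.0278% of the 2832028 windows tested in both cell types. Without epithelial control pool 1, 11 windows were called in both, 5 of them among the 20. Without epithelial vinclozolin pool 1 or 2 no epithelial call was left to share, and without pool 3 only 1 was. The difference of the lineage effect between cell types was itself tested in all 12 pools. No selected window passed by edgeR or by DESeq2, 177 had an unadjusted p under 0.05 by edgeR (1.83%), and 3.08e-05% of all windows tested passed. The median difference of log2 fold changes (stromal minus epithelial) was -0.13, and 172 of the 177 were negative. Among the windows the naming rule gives were chr4:77404501-77404600, with a log2 difference of -0.69 (SE 0.24, edgeR adjusted p = 0.787), and chr5:6374401-6374500, with one of 0.64 (SE 0.25, edgeR adjusted p = 0.808).

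The cell type difference asks which of these regions are methylated differently between the secretory epithelium and the fibroblast-rich stroma. It was small. Of the selected windows, 8 (0.0826%) passed the test over 12 pools, against 0.374% of all 3249767 windows tested, 6 of them higher in stromal cells and 2 higher in epithelial cells, in 7 clusters. DESeq2 called none of the selected windows (392 at an unadjusted p under 0.05), and leaving out a pool gave 1 to 98 calls by edgeR. The median log2 fold change (stromal over epithelial) was 0.07, with an interquartile range of -0.01 to 0.14, and rose from 0.03 in lone windows to 0.10 in clusters of 20 or more. It was 0.12 without epithelial control pool 1. In that fit 97 of the 9691 selected windows were called higher in stromal cells and 1 lower. The selected windows were then called more often than all windows tested, of which 0.424% were called. Both cell types of a lineage were prepared from the same groups of rats, and with the pool number within a lineage as a block 13 windows were called, 7 higher and 6 lower in stromal cells.

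Of the windows higher in stromal cells, that with the smallest p was chr19:5836701-5836800. It held 51, 70 and 65 counts in epithelial control, 54, 105 and 64 in epithelial vinclozolin, 81, 88 and 92 in stromal control and 108, 125 and 109 in stromal vinclozolin pools. The unscaled counts of the cell types overlapped only through epithelial vinclozolin pool 2, the deepest epithelial pool. Its log2 fold change was 0.59 (SE 0.12, edgeR adjusted p = 0.0049). Window chr5:46976201-46976300 held 57 to 96 counts in epithelial and 64 to 132 in stromal pools (log2 fold change 0.53, SE 0.12, edgeR adjusted p = 0.015). Window chr7:22328201-22328300 lay inside a cluster of 11 windows, of whose pool values 25.8% were at 90% of the ceiling or more (log2 fold change 0.52, SE 0.13, edgeR adjusted p = 0.028).

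The 2 windows higher in epithelial cells lay on chromosome 1. Window chr1:16748301-16748400 held 121, 118 and 106 counts in epithelial control, 83, 111 and 100 in epithelial vinclozolin, 69, 87 and 95 in stromal control and 80, 85 and 46 in stromal vinclozolin pools. Its log2 fold change was -0.46 (SE 0.12, edgeR adjusted p = 0.049), and it was also lower in stromal vinclozolin than in stromal control pools, by -0.82 (edgeR adjusted p = 0.00131). Window chr1:26804401-26804500 differed by -0.46 (SE 0.12, edgeR adjusted p = 0.049) between cell types. Most alternatives ended these calls: that of chr1:16748301-16748400 was lost in 14 and kept in 6, that of chr1:26804401-26804500 was lost in 12 and kept in 8, and that of chr7:22328201-22328300 was lost in 11 and kept in 9. Without epithelial control pool 1 the first 2 were lost (edgeR adjusted p = 0.0954 and 0.139). Within the control lineage alone the median over the selected windows was 0.13, and within the vinclozolin lineage alone it was -6.95e-05. No selected window was called in either by edgeR, and the counts at an unadjusted p under 0.05 were 315 and 472.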

How the data were processed

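MeDIP libraries of 12 pools were sequenced by the authors as paired reads of 50 bases. Per the labels and methods, FastQC, Trimmomatic, Bowtie2 with default options on Rnor_6.0, SAMtools and the MEDIPS package made the deposited read counts per 100 bp window, with no normalization. The treatment of duplicates is not given in the sources used here. Deposited RPKM values, group means and the authors' comparison columns were not used. Totals of 57.1 to 112 M counts per pool set the precision.

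Counts were tested with edgeR 4.0.16 in R 4.3.3 (quasi-likelihood, TMM factors, Benjamini-Hochberg adjustment, sums of at least 40 over 6 pools or 80 over 12). DESeq2 1.42.0, other scalings and filters, a ceiling correction, a depth covariate, a replicate block and leaving out pools were alternatives. Scripts were tested on simulated data. Clusters joined windows with starts at most 1000 bp apart. Clusters were named for size, highest sum, share near the ceiling or smallest p in each comparison and direction, and genes were added after values were seen. Symbols come from the study's region lists (Ensembl, Rnor_6.0), checked against RefSeq for the name but not for the position. The members and lists were chosen with earlier results of these data known. Nothing states that pools were independent beyond their rats, so p-values refer to variation between pools and not between rats. The edgeR test used a dispersion common to all windows and drew the variance of each window towards that of the others. A small p-value therefore does not rest on the spread between the few pools of its own window alone. Deviations of same-numbered pools correlated between -0.27 and 0.25, and the sources do not tie pool numbers to rats. One named cluster is not reported here.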

Additional observations from a re-analysis of the deposited data

Results flagged for a closer look

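Windows outside the autosomes were not part of any comparison, and 577 of them also held a summed count of 1000 or more. The X chromosome held 416 such windows of 1599701, with a highest sum of 3082. The Y chromosome held 29 of 33105, with a highest sum of 1795. The mitochondrial genome held 132 of its 164 windows (80.5%), with a median sum of 2023 and a highest of 3519. Each was flagged because signal of this strength appeared in windows the comparisons did not use. No window of these 3 sequences reached 300 counts in any pool. Mitochondrial DNA is present in many copies per cell, and the part of copy number in these counts was not tested.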

How the results depend on the processing

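In epithelial cells the 23 lineage calls became 110 at an adjusted p of 0.1, 0 at an unadjusted p of 1e-06, 0 with the count filter lowered to 10 (20 over 12 pools) (1724 at an unadjusted p under 0.05 by edgeR), 2 with no filter, 149 with the ceiling correction, 29 with DESeq2 (its own filter, a sum of 200), 7 with the depth covariate and 133 in one fit of 12 pools. Leaving out a pool gave 0 to 133: 133 without control pool 2, 51 without control pool 3, 1 without vinclozolin pool 3, and 0 without vinclozolin pool 1 or 2 (edgeR, 674 and 706 at an unadjusted p under 0.05). In stromal cells the 1356 calls became 2062, 185, 114, 60 and 106 at 0.1, at 1e-06, with the lowered filter, with no filter and with the depth covariate, 489 with DESeq2 and 604 in one fit. Leaving out a pool gave 157 to 2851: 487, 562 and 886 without control pools 1, 2 and 3, and 157 and 2851 without vinclozolin pools 2 and 3. The 8 cell type calls became 18 at 0.1, 0 at 1e-06, 4 with the lowered filter, 27 with the ceiling correction, 36 with the depth covariate, 0 with DESeq2 (392 at an unadjusted p under 0.05) and 0 in either lineage alone, and 1 to 98 without a pool, the most without epithelial control pool 1. The interaction had 0 calls under every setting run, with 58 to 1301 windows at an unadjusted p under 0.05 by edgeR when a pool was left out. The cause of these changes was not tested.

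With the replicate number as a block, calls were 39 in epithelial cells, 1303 in stromal cells, 13 between cell types and 0 for the interaction. The share of windows near the ceiling, 2.72%, was 45.5% at 50% of the ceiling and 0.433% at the ceiling itself. Leaving out a pool moved the number of selected windows between 9080 and 10267.

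Of 48 named windows and comparisons, 497 alternative values kept their side of the threshold and 194 lost the call. Another 11, all in stromal cells, lost the call with a change of sign, and none passed in the other direction (edgeR adjusted p from 0.636 to 0.968). With the depth covariate the values of 9 windows at the ceiling on chromosomes 1 and 13 became 0.03512, 0.0352, 0.03521, 0.03532, 0.04012 or 0.04141, and that of the 5S_rRNA and Gas8 window 0.055, which was 0.20 with the ceiling correction.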
